A study of Homo sapiens with 4 samples.

Results

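Of the 26255 gene symbols measured in each library, 9 are described here: RGS3, CAT, DUS3L, PLAA, TARS2, RNF4, COMMD6, KIFC1 and LMTK2. They carry a seed site for the microRNA miR-4800-3p in an annotated 3′ UTR, and they were chosen by their FPKM values, which were lower with a mimic of that microRNA than with a scrambled control. All 9 were found by symbol. Because the mimic-to-scramble difference chose these genes, it is given as a description and was not tested.

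RNA was sequenced from MIA PaCa-2 and PSN-1, human cell lines derived from pancreatic tumours, to find transcripts that respond to miR-4800-3p. The 4 groups were MIA PaCa-2 with the miR-4800-3p mimic, MIA PaCa-2 with a scrambled negative control oligonucleotide, PSN-1 given the mimic, and PSN-1 given the scrambled oligonucleotide. Each group was 1 library, so no value below has an error between cultures, and the second line is the only repeat of the treatment. The labels give no dose and no time after transfection. The libraries selected polyadenylated RNA, so the mature microRNA and its amount in the cells were not measured. Levels are FPKM, fragments per kb of transcript scaled to library size, which allow genes to be compared per length. By an estimate from the smallest steps in the values, 1 FPKM stood for 14.2 and 15.9 fragments per kb in the mimic libraries of MIA PaCa-2 and PSN-1, and for 12.7 and 12.6 in the matching scramble libraries.

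The labels call both lines epithelial. In the MIA PaCa-2 libraries the epithelial keratin genes KRT8 and KRT18 were at 653 FPKM or more, while KRT7 and CLDN7 were at 0 and EPCAM and CDH1 at 0.335 FPKM or less. PSN-1 had EPCAM at 28.4 FPKM with the mimic and 24.1 FPKM with the scramble. CDH1 there was at 0.72 FPKM with the mimic and 1.51 FPKM with the scramble, and CLDN7 at 0.051 and 0.445 FPKM. Of 8 epithelial markers in PSN-1, 6 were at 1 FPKM or more with the mimic and 7 with the scramble. Both lines had the mesenchymal gene VIM at 1144 FPKM or more, and ZEB1 was between 19.8 and 30.5 FPKM. The mesenchymal gene CDH2 reached at most 0.051 FPKM in any library. FN1 was at 0.046 FPKM with the mimic and 0.070 FPKM with the scramble in MIA PaCa-2, and at 353 and 308 FPKM in PSN-1. The 4 endothelial markers summed to at most 7.99 FPKM and the 6 leukocyte markers to at most 8.57 FPKM in any library. The 6 fibroblast markers summed to between 67.0 and 99.0 FPKM, mostly COL1A2 in MIA PaCa-2 (59.9 FPKM with the mimic, 76.8 FPKM with the scramble) and COL3A1, PDGFRB, LUM and COL1A1 in PSN-1, while DCN was under 0.3 FPKM in each library. Their part in the results was not tested.

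A microRNA is held by an Argonaute protein and finds messenger RNAs mainly through its seed, the bases near its 5′ end. Pairing of the seed with a site in the 3′ UTR recruits factors that shorten the poly(A) tail and block translation, so a target's messenger RNA level usually drops by a modest amount. Sites in coding sequence are known to act too, though as a rule more weakly, and sites within the first bases after the stop codon lie in reach of the terminating ribosome.

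The mature microRNA is shown first because its seed defines the sites. Its sequence is from RefSeq (GRCh38.p14, chromosome 4, 2250091 to 2250109, minus strand), written 5′ to 3′ with the seed, bases 2 to 8, in capitals.
miR-4800-3p: cAUCCGUCcgucuguccac
No other of the 2545 mature entries of that RefSeq table shares these seed letters. A site is the word GACGGAT (complement of the seed, a 7mer), GACGGATA (the same word with an A facing base 1, an 8mer) or ACGGATA (a 7mer facing bases 1 to 7). One of these words was present in the longest annotated 3′ UTR of 2.1% of 19163 protein-coding genes.

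The sites of the 9 genes are shown because they differ in kind, place and flanks. Each line gives 30 bases of the GENCODE transcript in sense orientation, 5′ to 3′, with the matching letters in capitals.
RGS3: cagaggctgtgtctctggacaGACGGATAg
PLAA: gctgtagcagtggggaagaggGACGGATAt
CAT: tttaaaaaaaaaatttgttttGACGGATga
COMMD6: cagttattgaaacggtgtgaaGACGGATtc
KIFC1: ctcaggccaacaggaagtgaaGACGGATcc
RNF4: tattcagagccccccaggagaGACGGATgg
TARS2: gcactctgggaggctgaggcgGACGGATca
LMTK2: acacattggggggtcgaggcgGACGGATca
DUS3L: cgtgcggacctgcgggcccctGACGGATga
RGS3 and PLAA have the 8mer and the other 7 genes the 7mer facing bases 2 to 8. No member rests on ACGGATA alone. Each longest 3′ UTR held 1 site.

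In GRCh38 the RGS3 site is at chr9:113597073-113597080 on the plus strand, and 10 of the 12 annotated RGS3 transcripts with a 3′ UTR contain it. PLAA has its 8mer at chr9:26905489-26905496 on the minus strand, in 1 of 3 transcripts, the one with the 1428-base 3′ UTR. The CAT site (chr11:34471657-34471663, plus strand) is in both annotated transcripts, and the COMMD6 site (chr13:75526581-75526587, minus strand) in all 4. The KIFC1 site is at chr6:33409692-33409698 and the LMTK2 site at chr7:98207860-98207866, both on the plus strand. LMTK2 has 1 annotated transcript, so its site is not a matter of isoform, while KIFC1 has it in its full-length transcript and lacks it in a fragmentary one. TARS2 (chr1:150507342-150507348, plus strand) has the site in 2 of 4 transcripts. RNF4 (chr4:2513843-2513849, plus strand) has it in 5 of 6.

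DUS3L goes against its description as a gene with a 3′ UTR site. Its word at chr19:5789246-5789252 (minus strand) lies in a 3′ UTR in only 1 of 4 transcripts, a short model outside GENCODE's basic set, and in neither of the 2 basic transcripts. In the full-length transcript the same word lies in the coding sequence, at base 855 of 1953, and a second one follows at base 962 (chr19:5788151-5788157).
DUS3L coding, second site: cgtgtgggaacctgcccttccGACGGATct
RNF4 has a coding site besides its 3′ UTR site, an 8mer at base 409 of the 573-base coding sequence (chr4:2513117-2513124).
RNF4 coding: gtcagttgtcccatctgcatgGACGGATAc
Such double carriers were rare: 6.92% of the 289 other measured genes with a 3′ UTR site also had a coding site.

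**Figure D1:**
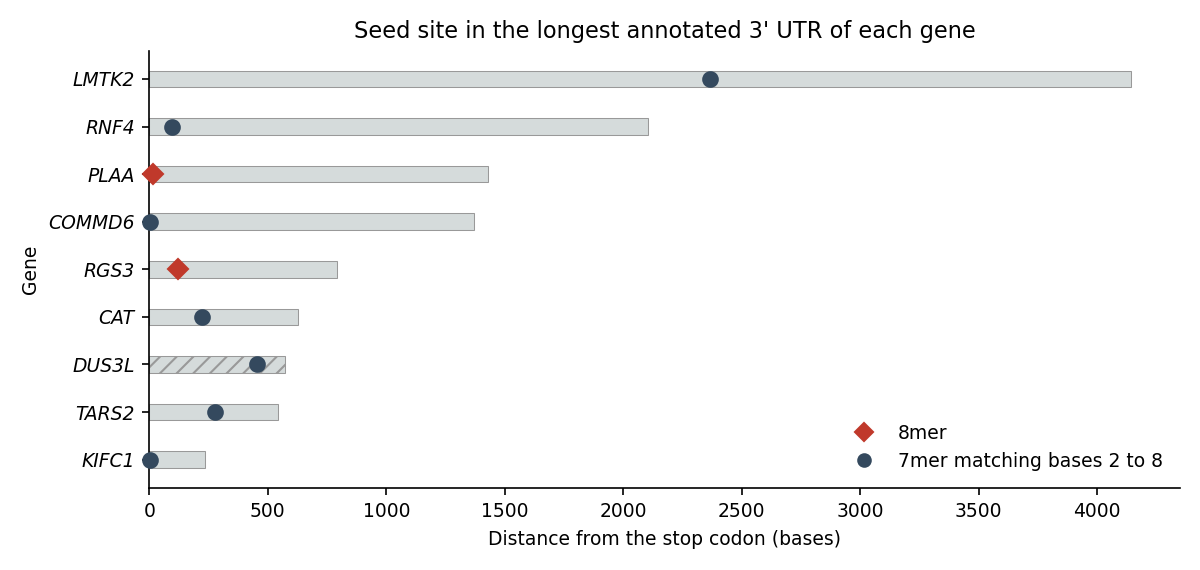
Place of the seed site (first base; diamond, 8mer; circle, 7mer) in the longest annotated 3′ UTR (bar) of each gene, with the distance from the stop codon in bases on the x axis. KIFC1, COMMD6 and PLAA have it within 15 bases of the stop codon and LMTK2 has it 2368 bases away. The hatched DUS3L bar is a short transcript, and the word is coding sequence in the full-length one.

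Most of the sites were near the stop codon. In KIFC1 and COMMD6 the word starts at base 2 after the stop, in PLAA at base 15, and in RNF4 at base 24 or 95 depending on the transcript. RGS3 has it at base 120, CAT at 224, TARS2 at 278, DUS3L at 454 in its short model and LMTK2 at 2368. Over the 9 longest 3′ UTRs the median first base was 120, against 1252 for the 289 other seed-site genes, and 3 of 9 sites began within 30 bases of the stop against 2.77% of the others. The 3′ UTRs themselves were short, with a median of 790 bases against 3276 for the other genes, and LMTK2 alone, at 4141 bases, was above the median of 3186 over all 298.

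The flanks of the sites did not have a common composition. Over 30 bases on each side, the A and T content ran from 26.7% at the DUS3L site to 83.3% at the CAT site, with a median of 48.3% against 56.7% at the other genes' sites. A word that could pair with bases 13 to 16 of the microRNA (GACA, searched in the 15 bases before the site) stood at the RGS3 site alone among the 9, and at 4.84% of the others. The predicted energy of the duplex between the microRNA and the 30-base window was -23.8 kcal/mol at the median member and -15.5 kcal/mol at the median of the other genes. Of the other genes, 37.0% have ACGGATA as their site, a kind no member has, and energies were not compared within a kind. PLAA (-25.9 kcal/mol), LMTK2 (-25.2), RNF4 (-24.8), RGS3 (-24.7), TARS2 (-23.8) and DUS3L (-20.9) were below the median of -15.6 over all 298 genes. COMMD6 (-15.5), KIFC1 (-14.4) and CAT (-14.1) were above it.

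The TARS2 and LMTK2 windows are alike over their last 15 letters, GAGGCGGACGGATCA, and match at 24 of 30 places. Alu repeats, which are frequent in human 3′ UTRs, carry a closely similar stretch; no repeat annotation was used here. The 15-letter word occurred in 6 of 19163 longest 3′ UTRs (0.0313%) and in 5 of the 298 measured seed-site genes. The 3 of these that are not members had a median log2 ratio of -0.046 in MIA PaCa-2 cells and 0.019 in PSN-1, beside -1.04 and -0.70 for TARS2 and -1.34 and -0.46 for LMTK2.

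**Figure D2:**
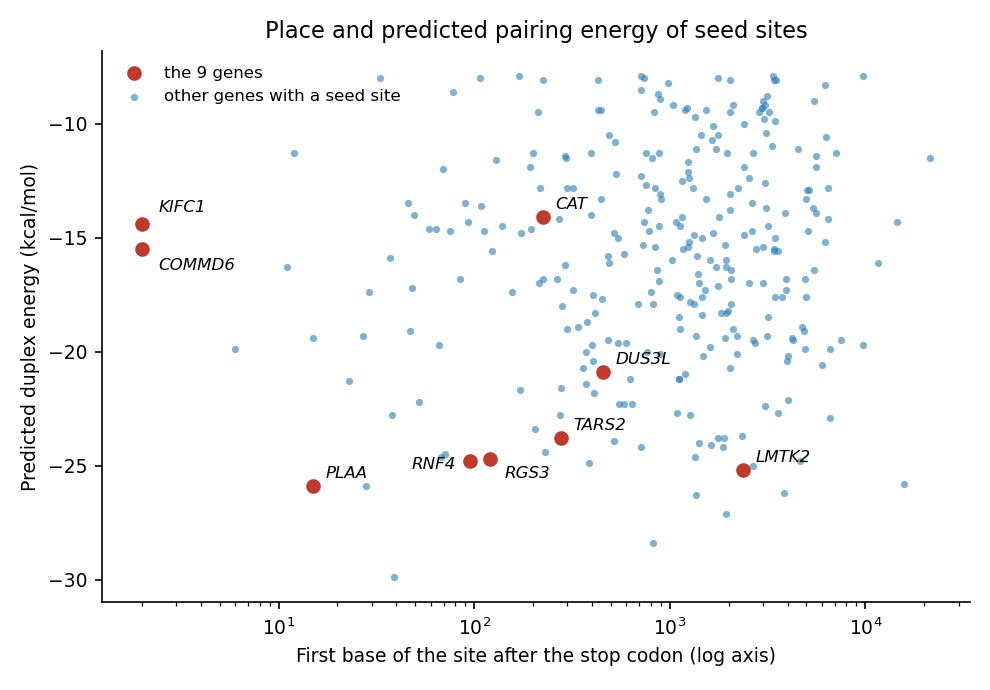
First base of the site after the stop codon (x axis, log scale) and predicted energy of the microRNA and site duplex in kcal/mol (y axis, lower is more stable) for the 9 genes (red) and 289 other measured genes with a seed site (blue). KIFC1 and COMMD6 lie at the left edge at -14.4 and -15.5 kcal/mol, and 6 of the 9 lie at or below -20.9 kcal/mol.

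All 9 genes had lower levels with the mimic in both lines, where 47.8% of genes in MIA PaCa-2, 52.4% in PSN-1 and 27.6% in both were below 0. Each log2 ratio sets the mimic library over the scramble library after 1 FPKM was added to either value, which shrinks the ratios of low genes. Where a pair of log2 ratios is given, the value for MIA PaCa-2 precedes that for PSN-1. In whole cultures, less RNA per cell and fewer cells holding the RNA cannot be told apart. The error after each ratio is the counting SE from estimated fragments over the shortest annotated full transcript, and it leaves out any spread between cultures. In MIA PaCa-2, 8 of 9 were lower past 1.5-fold and 6 past 2-fold, beside 4.06% and 0.81% of the 11484 genes that averaged 1 FPKM or more. In PSN-1, 7 of 9 passed 1.5-fold and 2 passed 2-fold, beside 3.87% and 0.777% of 12233 genes. In both lines at once 6 passed 1.5-fold, beside 0.609% of 10678 genes, and RGS3 alone passed 2-fold (0.112%). Nothing is read from these shares, since the same contrast picked the genes. The median of the 9 log2 ratios was -1.12 in MIA PaCa-2 cells and -0.78 in PSN-1, where the medians of all genes were 0.014 and -0.016.

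**Figure D3:**
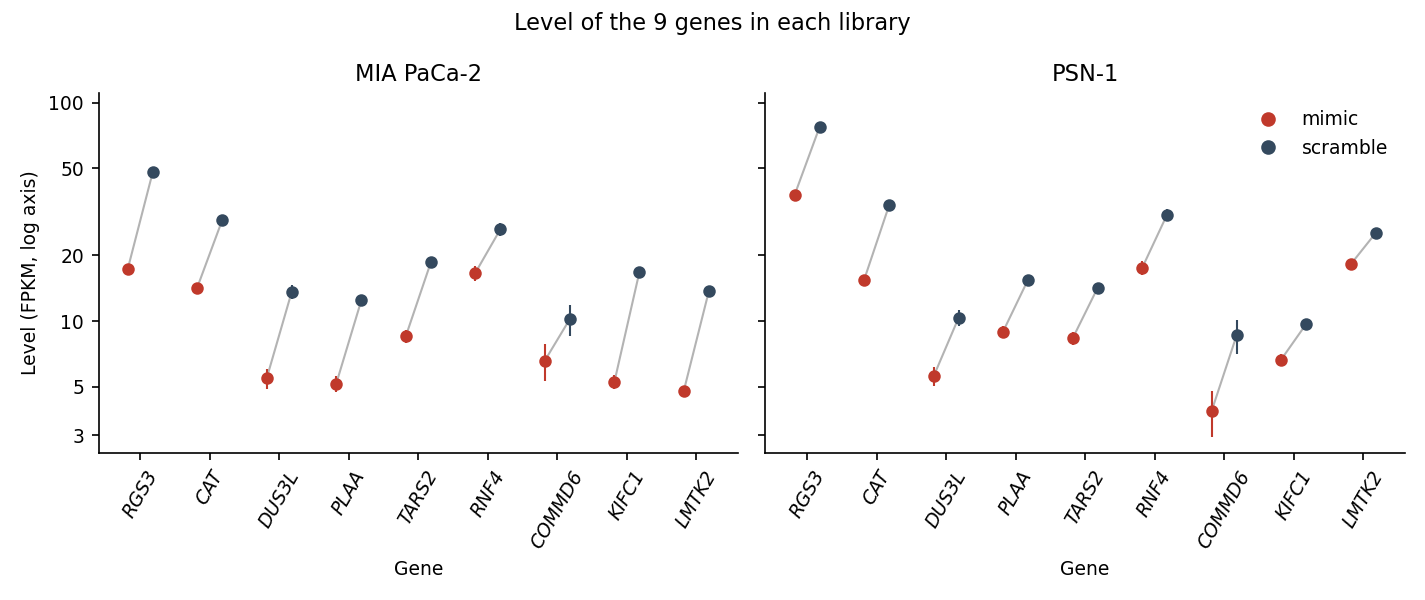
Level in FPKM (log axis) of the 9 genes in the 4 libraries, mimic (red) left of scramble (dark) for each gene, 1 library each; bars are the counting SE and lines join the libraries of a line. Each mimic library is below its scramble library for all 9 genes, with the steepest line for KIFC1 in MIA PaCa-2 (5.25 FPKM with the mimic against 16.7 FPKM with the scramble).

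RGS3 and LMTK2 act in signalling. RGS3 speeds the GTPase of G alpha subunits of the Gi and Gq classes and so ends signals from their receptors. It was at 17.3 FPKM in MIA PaCa-2 with the mimic, against 48.0 FPKM with the scramble, and at 37.7 FPKM in PSN-1 with the mimic, against 77.2 FPKM with the scramble. It had the highest FPKM of the 9 in each library, though RNF4 (16.6 FPKM) lay within 1.96 counting SE of it in MIA PaCa-2 with the mimic. The log2 ratios of RGS3 were -1.42 ± 0.095 and -1.02 ± 0.066 (counting SE). Its transcripts run from 1503 to 4591 bases, and the files do not separate them.

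LMTK2 is a membrane-anchored kinase that binds myosin VI in endosomal transport and controls protein phosphatase 1. It was at 4.81 FPKM in MIA PaCa-2 with the mimic, against 13.7 FPKM with the scramble, and at 18.2 FPKM in PSN-1 with the mimic, against 25.3 FPKM with the scramble. The MIA PaCa-2 library with the mimic thus had 65.0% less and the PSN-1 one 28.2% less than its scramble. Its log2 ratios were -1.34 ± 0.070 and -0.46 ± 0.040 (counting SE), and LMTK2 had the smallest difference of the 9 in PSN-1. Its transcript of 8946 bases gave at least 597 estimated fragments in each library, the most of the 9.

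CAT encodes catalase, the peroxisomal enzyme that splits hydrogen peroxide. It was at 14.2 FPKM in MIA PaCa-2 with the mimic, against 29.0 FPKM with the scramble, and at 15.4 FPKM in PSN-1 with the mimic, against 33.8 FPKM with the scramble. The levels were alike in the 2 lines in each condition, and so were the log2 ratios, -0.98 ± 0.087 and -1.09 ± 0.080 (counting SE). With 1 FPKM added, CAT had the lowest log2 ratio of the 9 in PSN-1. Without it, COMMD6 was slightly lower there (mimic over scramble 0.450, against 0.456 for CAT). The CAT site had the weakest predicted pairing of the 9, and a link between pairing and ratio was not tested.

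DUS3L and TARS2 act on transfer RNA. DUS3L reduces uridine to dihydrouridine in cytoplasmic tRNA. It was at 5.48 FPKM in MIA PaCa-2 with the mimic, against 13.6 FPKM with the scramble, and at 5.58 FPKM in PSN-1 with the mimic, against 10.3 FPKM with the scramble. The 2 mimic libraries were thus nearly at the same level, and the scramble libraries were further apart. On the log2 scale the ratios were -1.17 ± 0.18 and -0.79 ± 0.18 (counting SE).

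TARS2 loads threonine onto mitochondrial tRNA. It was at 8.51 FPKM in MIA PaCa-2 with the mimic, against 18.5 FPKM with the scramble, and at 8.32 FPKM in PSN-1 with the mimic, against 14.2 FPKM with the scramble. The pattern was like that of DUS3L, with mimic libraries at one level. This gave log2 ratios of -1.04 ± 0.12 and -0.70 ± 0.12 (counting SE).

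PLAA and RNF4 belong to the ubiquitin and SUMO systems. PLAA binds ubiquitin and is a cofactor of the segregase VCP. It was at 5.17 FPKM in MIA PaCa-2 with the mimic, against 12.4 FPKM with the scramble, and at 8.95 FPKM in PSN-1 with the mimic, against 15.5 FPKM with the scramble. The log2 ratios were -1.12 ± 0.15 and -0.73 ± 0.12 (counting SE). IFT74, which overlaps the span of PLAA on the other strand, had 12.4 FPKM with the mimic against 14.9 FPKM with the scramble in MIA PaCa-2 and 9.79 FPKM with the mimic against 8.47 FPKM with the scramble in PSN-1. Whether the counting used strand is not given in the sources used here, so reads of the overlap cannot be assigned.

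RNF4 adds ubiquitin to proteins that carry SUMO chains. It was at 16.6 FPKM in MIA PaCa-2 with the mimic, against 26.3 FPKM with the scramble, and at 17.5 FPKM in PSN-1 with the mimic, against 30.7 FPKM with the scramble. Its log2 ratios were -0.63 ± 0.15 and -0.78 ± 0.14 (counting SE). RNF4, with 2 sites of which 1 is an 8mer in coding sequence, had the second smallest difference of the 9 in MIA PaCa-2. In PSN-1 its log2 ratio was the median of the 9. FAM193A, which overlaps it on the same strand, had 23.7 FPKM with the mimic against 28.0 FPKM with the scramble in MIA PaCa-2 cells and 20.7 FPKM with the mimic against 16.8 FPKM with the scramble in PSN-1.

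COMMD6 is a small COMM domain protein of the CCC complex, which returns membrane proteins from endosomes. It was at 6.59 FPKM in MIA PaCa-2 with the mimic, against 10.2 FPKM with the scramble, and at 3.88 FPKM in PSN-1 with the mimic, against 8.61 FPKM with the scramble. On the log2 scale the ratios were -0.56 ± 0.37 and -0.98 ± 0.43 (counting SE). These are the least certain values of the 9, because a transcript of 486 bases at these levels rests on about 17.7 to 37.1 fragments. If the 1793-base transcript were the one present, the errors would be 0.15 and 0.18. In MIA PaCa-2 COMMD6 was the only member short of 1.5-fold with 1 FPKM added. Without it, mimic over scramble was 0.645, past that size. The counting SE of 0.37 leaves its side of the limit uncertain.

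KIFC1 is a kinesin that moves toward microtubule minus ends, bundles spindle poles and gathers extra centrosomes. It was at 5.25 FPKM in MIA PaCa-2 with the mimic, against 16.7 FPKM with the scramble, and at 6.66 FPKM in PSN-1 with the mimic, against 9.69 FPKM with the scramble. It had the lowest log2 ratio of the 9 in MIA PaCa-2 cells and the second smallest difference in PSN-1. This gave log2 ratios of -1.50 ± 0.12 and -0.48 ± 0.12 (counting SE).

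**Figure D4:**
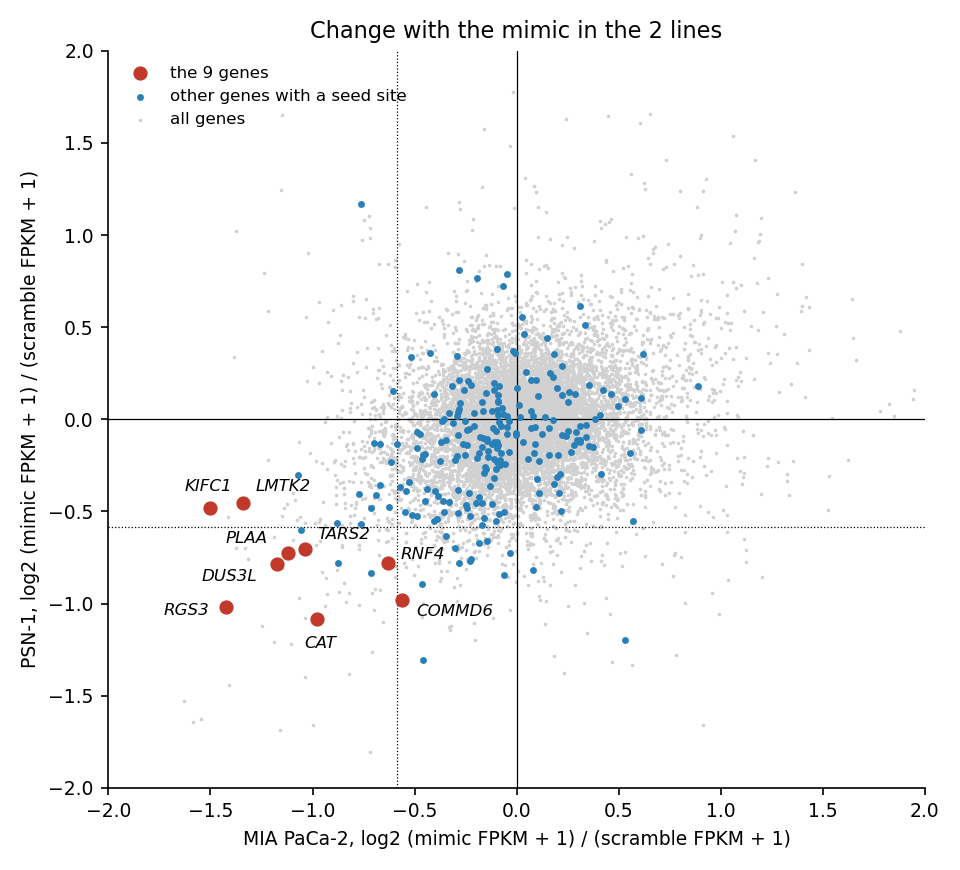
Log2 ratio of mimic over scramble in MIA PaCa-2 (x axis) and PSN-1 (y axis) for 10678 genes averaging 1 FPKM or more in each line (grey), other genes with a seed site (blue) and the 9 genes (red); dotted lines mark 1.5-fold lower, and 39 genes lie outside the axes. The 9 genes sit in the lower left, with KIFC1 and LMTK2 to the left of 1.5-fold in MIA PaCa-2 cells and above that line in PSN-1.

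The lines differed most for KIFC1 and LMTK2. The log2 ratio in PSN-1 minus that in MIA PaCa-2 was 1.02 ± 0.17 for KIFC1, 0.89 ± 0.080 for LMTK2, 0.41 ± 0.12 for RGS3 and 0.39 ± 0.19 for PLAA (counting SE). These 4 were past 1.96 counting SE. For DUS3L (0.39 ± 0.26), TARS2 (0.33 ± 0.17), CAT (-0.11 ± 0.12), RNF4 (-0.15 ± 0.20) and COMMD6 (-0.42 ± 0.56) the difference was within it. PLAA and TARS2 lay close to that limit, at 2.06 and 1.95 counting SE. The SE leaves out the added 1 FPKM and assumes the shortest transcript, so the side on which these genes fall depends on such settings. Without replicate cultures, a difference between lines could not be tested for any gene.

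Without the mimic the 9 genes differed by less than 2-fold between the lines. In scramble libraries the log2 ratio of PSN-1 over MIA PaCa-2 ran from -0.73 for KIFC1 (9.69 FPKM in PSN-1, 16.7 FPKM in MIA PaCa-2) to 0.84 for LMTK2 (25.3 FPKM in PSN-1, 13.7 FPKM in MIA PaCa-2), with a median of 0.21. RGS3 was 1.61 times as high in PSN-1. TARS2 (-0.36), DUS3L (-0.37) and COMMD6 (-0.22) were lower in PSN-1, and PLAA (0.30), RNF4 (0.22) and CAT (0.21) higher. In the MIA PaCa-2 scramble library the order was RGS3, CAT, RNF4, TARS2, KIFC1, LMTK2, DUS3L, PLAA and COMMD6, from 48.0 to 10.2 FPKM. There 5 of the 8 neighbouring pairs, LMTK2 and DUS3L among them, lay within 1.96 counting SE of each other. In the PSN-1 scramble library the order was RGS3, CAT, RNF4, LMTK2, PLAA, TARS2, DUS3L, KIFC1 and COMMD6, from 77.2 to 8.61 FPKM, and 4 of 8 pairs lay within it. With the mimic, 7 of 8 neighbouring pairs in MIA PaCa-2 cells and 5 of 8 in PSN-1 lay within it.

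The 9 genes belong to the low end of a wider set. Of 239 seed-site genes measured in both lines, 123 were below 0 in both. Ordered by the smaller of the 2 differences, RGS3, CAT and DUS3L were at places 1 to 3, PLAA at 5, TARS2 at 7, RNF4 at 8, COMMD6 at 11, KIFC1 at 16 and LMTK2 at 21. The 12 genes between them that are not members were CCZ1B, RALB, RRM1, BTN3A2, CCZ1, ZBED6, ATXN1L, ITM2B, CXorf56, TSN, ARHGAP19 and CFL2. CCZ1 and CCZ1B are near-identical copies whose reads can be split between them. The next gene after LMTK2 was VANGL1, an 8mer gene, with log2 ratios of -0.45 in each line, beside -0.46 for LMTK2 in PSN-1. CD83 (-0.76 in MIA PaCa-2 cells and 1.17 in PSN-1), MYADM (0.53 and -1.20) and POLD4 (0.57 and -0.55) had differences at least as large but of opposite sign in the lines.

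Without the members, the seed-site genes had a median log2 ratio of -0.11 in MIA PaCa-2 cells (242 genes) and -0.12 in PSN-1 (277 genes). Genes without a 3′ UTR site had 0.021 and -0.015. Here these are genes whose longest 3′ UTR lacks even ACGGAT, the letters common to all the site words. Genes with the site within 30 bases of the stop, the place of KIFC1, COMMD6 and PLAA, had medians of -0.25 (6 other genes) and -0.16 (8 other genes). Short 3′ UTRs, the kind all members but LMTK2 have, went with -0.18 in each line among the others, and long ones with -0.075 and -0.053. The predicted duplex energy separated them less: the other genes below the median energy had -0.15 and -0.12, and those at or above it -0.098 and -0.11.

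Genes with coding sites, as in DUS3L and RNF4, also had medians below those of the genes above without a 3′ UTR site. That comparison set includes the genes that have only a coding site. Genes with a coding site in the longest coding sequence and no 3′ UTR site had median log2 ratios of -0.13 in MIA PaCa-2 cells (435 genes) and -0.087 in PSN-1 (480 genes). Genes with both kinds had -0.23 (17 genes) and -0.23 (20 genes) without the members. These medians are descriptions over genes of 1 pair of libraries each.

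The other genes of the members' families and pathways, 200 in the files over 11 lists, mostly lay near 0. They were counted at 1.5-fold, the size passed upward by 5.43% of all genes in MIA PaCa-2 cells and 3.17% in PSN-1. Of the 200, 4 had a 3′ UTR site (GNAZ, PRDX2, CCDC93 and VPS29), beside 2.1% of all 19163 longest 3′ UTRs. A coding site was in 6 of the 200, and the share of all genes with one was not counted. These 6 were AGPS and UBE4B, described below, and TRMT1 (-0.097 and -0.035), PUS7 (-0.050 and -0.029), IARS2 (0.077 and 0.065) and SENP7 (0.0028 and 0.15).

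**Figure D5:**
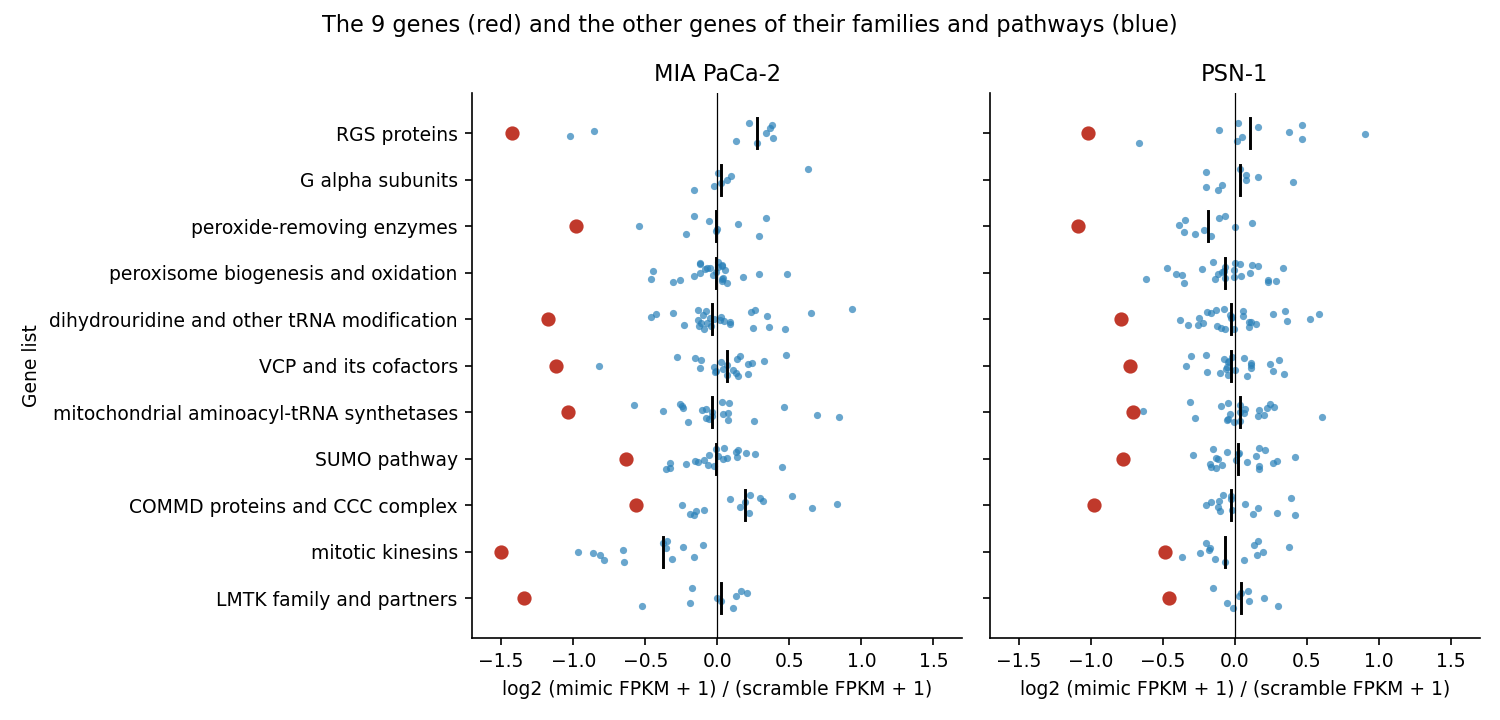
Log2 ratio of mimic over scramble of the 9 genes (red) and of the other genes averaging 1 FPKM or more in 11 related lists (blue) in MIA PaCa-2 and PSN-1; black bars are medians of the blue genes. The mitotic kinesins lie left of 0 in MIA PaCa-2 cells (median -0.38) and around 0 in PSN-1 (median -0.065), and the other medians lie between -0.19 and 0.28.

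Among the RGS proteins, 7 of 9 other measured genes were above 0 in MIA PaCa-2 cells (median 0.28) and 8 of 10 in PSN-1 (median 0.10), opposite to RGS3. RGS2, which acts on Gq, was an exception in MIA PaCa-2, at 36.4 FPKM with the mimic and 66.6 FPKM with the scramble (log2 ratio -0.85), and was at 50.4 and 45.0 FPKM in PSN-1 (0.16). RGS10 had 0.28 and 0.015, and RGS19 0.34 and -0.11. The G alpha subunits, on which RGS proteins act, had medians of 0.029 and 0.035, with 1 of 7 past 1.5-fold in MIA PaCa-2 cells (GNAZ, 0.63, which has a seed site) and 0 of 9 in PSN-1. GNA11 (-0.16 and -0.11), GNA12 (-0.020 and -0.20), GNAI2 (0.066 and 0.16) and GNAI3 (0.097 and 0.080) stayed within 0.21 of 0. The G alpha median in MIA PaCa-2 changed sign with the scaling of the libraries.

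The peroxide-removing enzymes other than CAT had 5 of 9 below 0 in MIA PaCa-2 cells (median -0.0074) and 8 of 10 in PSN-1 (median -0.19), none past 1.5-fold. PRDX2, a peroxiredoxin with a 7mer site, had the lowest ratio in both lines, at 148 FPKM with the mimic against 215 FPKM with the scramble in MIA PaCa-2 cells (-0.54) and 110 FPKM with the mimic against 145 FPKM with the scramble in PSN-1 (-0.39). GPX4, which reduces lipid peroxides, had -0.22 and -0.28, PRDX4 had -0.056 and -0.35, and PRDX3 had 0.14 and 0.12. In the peroxisome itself, 13 of 25 genes were below 0 in MIA PaCa-2 cells (median -0.0074) and 15 of 25 in PSN-1 (median -0.068). AGPS, an enzyme of ether lipid synthesis with a coding site, had the lowest ratio in both lines, at 7.15 FPKM with the mimic against 10.2 FPKM with the scramble (-0.46) and 10.8 FPKM with the mimic against 17.1 FPKM with the scramble (-0.62). PEX14 had -0.44 and -0.078, and PEX10 had -0.031 and -0.37.

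The tRNA modification genes had medians of -0.034 over 28 genes in MIA PaCa-2 cells and -0.029 over 27 in PSN-1, with 2 and 1 higher past 1.5-fold and 0 lower. DUS3L's relatives were closer to 0 than DUS3L was. DUS1L had -0.044 and -0.13, DUS2 -0.23 and -0.32, and DUS4L 0.090 and -0.26. WDR4, a subunit of the tRNA guanine methyltransferase, had 12.3 FPKM with the mimic against 5.95 FPKM with the scramble in MIA PaCa-2 cells (0.94) and 6.04 FPKM with the mimic against 6.41 FPKM with the scramble in PSN-1 (-0.073). QTRT1 had -0.46 and -0.25, and PUS3 -0.024 and 0.52.

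The mitochondrial synthetases beside TARS2 were 12 of 21 below 0 in MIA PaCa-2 cells (median -0.040) and 9 of 21 in PSN-1 (median 0.037). LARS2, the leucine enzyme, had -0.38 and -0.64, and SARS2, the serine enzyme, -0.58 and 0.037. GARS, which serves cytoplasm and mitochondria, was higher, at 319 FPKM with the mimic against 177 FPKM with the scramble in MIA PaCa-2 cells (0.84) and 145 FPKM with the mimic against 95.0 FPKM with the scramble in PSN-1 (0.60), and QRSL1 had 0.46 and 0.27.

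VCP and its cofactors other than PLAA had medians of 0.069 and -0.028 over 22 genes in each line. UBE4B, a ubiquitin chain-extending ligase with a coding site, was the only one lower past 1.5-fold, at 7.13 FPKM with the mimic against 13.4 FPKM with the scramble in MIA PaCa-2 cells (-0.82), and had the lowest ratio in PSN-1 too (-0.34). DERL1 (0.21 and 0.34), UBXN2A (0.21 and 0.25) and UBXN2B (0.24 and 0.11) were above 0 in both. In the SUMO pathway, none of 21 genes beside RNF4 passed 1.5-fold in either line, and the medians were -0.012 and 0.025. SENP6, which trims SUMO chains, had 0.13 and 0.42, UBA2 0.14 and 0.21, PIAS2 -0.33 and -0.13, and RANBP2 -0.22 and -0.18.

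COMMD6's partners were 10 of 15 above 0 in MIA PaCa-2 cells (median 0.19) and 6 of 15 in PSN-1 (median -0.025). COMMD2 had 0.65 and 0.16, DSCR3 0.30 and 0.39, and COMMD4 -0.24 and -0.20. CCDC93, a CCC subunit with a seed site, was above 0 in both lines (0.22 and 0.29). No partner was lower past 1.5-fold.

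KIFC1 stood in a list that was lower as a whole in MIA PaCa-2. There 13 of 13 other mitotic kinesins were below 0, 6 of them past 1.5-fold, while in PSN-1 7 of 13 were below 0 and none passed it. KIF20A had -0.97 and 0.20, KIF18B -0.86 and -0.24, KIF11, the motor that pushes spindle poles apart, -0.78 and 0.066, and KIF20B -0.65 and -0.18. None of the 13 has a 3′ UTR or coding site. With a 3′ UTR site in only 2.1% of all longest 3′ UTRs, nothing is read from that absence. The part of this list-wide difference in the KIFC1 value was not tested.

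LMTK2's relatives LMTK3 and AATK were under 1 FPKM in every library and were not compared. Of its 9 measured partners 3 were below 0 in each line. PPP1R2 had -0.17 and -0.15, PPP1CC 0.16 and 0.095, PPP1CB 0.20 and 0.043, and GSK3B -0.19 and -0.053, and none passed 1.5-fold. The median of 0.024 in MIA PaCa-2 changed sign with the scaling of the libraries.

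The gene with the most similar pattern was sought for each member among 9307 genes of at least 5 FPKM on average, by Euclidean distance between log2(FPKM + 1) values centred over the 4 libraries. The distances ran from 0.050 to 0.30, over 4 libraries only. None of these genes that could be searched has a 3′ UTR site. Since 2.1% of all longest 3′ UTRs hold one, nothing is read from its absence in so few genes. RNF4 was nearest to RBFOX2, a splicing regulator with a coding site, at log2 ratios of -0.67 and -0.73 (distance 0.050). CAT was nearest to MLLT6 (-1.04 and -1.08), PLAA to the import receptor gene IPO8 (-0.98 and -0.68), and COMMD6 to the mitochondrial insertase gene OXA1L (-0.67 and -0.93). DUS3L and TARS2 were both nearest to CCNF, a cyclin-like ubiquitin ligase subunit (-1.08 and -0.55). KIFC1 was nearest to the mitotic kinase gene PLK1, at 24.0 FPKM with the mimic against 52.5 FPKM with the scramble in MIA PaCa-2 cells and 27.2 FPKM with the mimic against 36.3 FPKM with the scramble in PSN-1 (distance 0.30). The genes nearest to RGS3 (PCNA-AS1, antisense to PCNA) and LMTK2 (NUDT4P2, one of several NUDT4 copies) can share reads with other genes, so their levels are uncertain.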

How the data were processed

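RNA was from MIA PaCa-2 and PSN-1 cells, isolated with a miRNeasy Micro kit and made into TruSeq stranded mRNA libraries, per the labels' protocols. The authors deposited one FPKM per gene symbol and library. The submitters' processing notes list the build hg19 and the tools Cuffdiff 2.2.1 and TopHat2 2.1.1; what each did, which annotation was counted, whether strand was used and how libraries were scaled are not stated there. An error in a library's scaling would move all ratios of its line together.

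The 9 genes, the related lists and the rules for naming genes were chosen with earlier results of these data known. Named genes are the 9 genes, the gene nearest to each in pattern, up to 4 genes per related list with the largest mean difference at 5 FPKM or more in both lines, and the seed-site genes at least as low as the last member; RGS16, GNAZ, VPS29, VANGL1, DUS1L, DUS4L, LMTK3, AATK and the overlapping genes were named after their values were seen, and 1 gene that the rule names is not reported here. Ratios used a pseudocount of 1 FPKM, and counts cover genes averaging 1 FPKM or more in a line. Each group is 1 library and the contrast itself chose the genes, so nothing was tested.

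Fragments were estimated from single-transcript genes of at least 1000 bases under 0.3 FPKM, assuming fragments of 200 bases: 53 to 74 genes per library fell in the modal step. Files matched GENCODE release 29 (GRCh38, another build than that of the files) by current or older symbol, so site coordinates are GRCh38 and were not used with the files' build; 3′ UTRs were searched for 18168 symbols. Site search, depth estimate and ratios were tested on simulated data. Duplex energies came from RNAduplex 2.7.2. Python 3.11.15, numpy 2.4.6, pandas 2.3.3 and matplotlib 3.10.9 were used. The alternatives were other pseudocounts, scalings, folds, filters and definitions of a site.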

Additional observations from a re-analysis of the deposited data

Results flagged for a closer look

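RGS16, another regulator of G protein signalling, was lower with the mimic in MIA PaCa-2, at 1.39 against 3.84 FPKM (log2 ratio -1.02), and higher in PSN-1, at 68.8 against 36.4 FPKM (log2 ratio 0.90). CD83, a seed-site gene, had a log2 ratio of -0.76 in MIA PaCa-2 cells and 1.17 in PSN-1 cells. Both passed 1.5-fold in opposite directions in the 2 lines. The difference between the lines was not tested, since each line has 1 library per group.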

How the results depend on the processing

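All 90 recomputed ratios of the 9 genes, over pseudocounts of 0.1 and 5 and 3 scalings in each line, were below 0. With the pseudocount of 5 the median of the 9 log2 ratios in MIA PaCa-2 was -0.82 and the count past 1.5-fold in PSN-1 was 4. At 2-fold, with 1 FPKM added, the PSN-1 count was 2. In MIA PaCa-2 the count past 1.5-fold was 9 with a pseudocount of 0.1, and also with each library scaled to the mean sum. Without the filter on low values the share of all genes lower past 1.5-fold was 2.09% in MIA PaCa-2 cells and 2.06% in PSN-1 cells. With 8mers alone the median of all seed-site genes in MIA PaCa-2 was -0.18. Asking for the site in every transcript with a 3′ UTR left 3 of the 9 genes, CAT, COMMD6 and LMTK2, and using GENCODE's basic transcripts, an alternative chosen after seeing the data, left 8, without DUS3L. The smaller ratios at a pseudocount of 5 follow from its construction, and the lower shares without the filter from the addition of genes near 0. Scaling moved the median of all genes by at most 0.041 on the log2 scale and changed the sign of 2 of 22 list medians. No paired analysis was possible because the labels carry no replicate numbers. A fit with the line as a block over the 4 libraries would leave 1 residual degree of freedom and was not run, since the same contrast chose the genes. Depth limits COMMD6 most, with about 17.7 fragments in its lowest library.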
